A study of Arabidopsis thaliana with 91 samples.

Results

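AT5G20750, AT5G27500, AT5G27505, AT1G49440 and AT1G58010 are 5 of the 4843 annotated pseudogenes among the 37899 nuclear genes of Arabidopsis thaliana. They were selected on H3K14ac, as the genes at the 5 highest stretches of this mark that were present in SDG2-ZF leaves and absent from Col-0 leaves. A stretch, called a gained segment here, was at least 100 bp covered by peaks of both H3K14ac SDG2-ZF libraries and by no peak of either H3K14ac Col-0 library, and 1439 such segments were found. The H3K14ac values of SDG2-ZF and Col-0 therefore chose these genes and are given as a description, without a test. The gene region was the gene span plus 1 kb upstream of its start, and peaks were read there in all 50 peak lists.

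A pseudogene is a stretch that resembles a gene but has lost the ability to make its product, and many plant pseudogenes lie in silent chromatin. H3K14ac, acetylation of histone H3 at lysine 14, and H3K4me3, trimethylation at lysine 4, mark the starts of active genes, and H2A.Z is a histone variant found around gene starts and over genes that respond to stimuli. SDG2 is the main enzyme that writes H3K4me3 in Arabidopsis, and ROS1 is a DNA demethylase that removes methylated cytosine.

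The samples were chromatin immunoprecipitation libraries and their inputs from leaf of 4- to 5-week-old plants in the Col-0 ecotype, and 50 of 91 samples had a peak list. SDG2-ZF carried the catalytic part of SDG2 fused to the zinc finger ZF108 under the UBQ10 promoter in Col-0 plants, and SDG2-ZF_rdd carried it in rdd, the triple mutant ros1-3 dml2-1 dml3-1 that lacks 3 DNA demethylases. SDG2(H1866K)cd carried a version with a changed catalytic residue, and SunTag-SDG2_rdr6 brought the same SDG2 part to FWA by dCas9 and guides in rdr6 plants. ROS1xSDG2-ZF joined SDG2-ZF with Myc-tagged ROS1, and was set against ROS1 without it. TRBIP1-ZF in fwa plants, TRBIP1-dCAS9-MQ1v in fwaxrdr6 plants and JMJ14xTRBIP1-ZF, set against JMJ14, carried no SDG2 part. JMJ14 is an enzyme that removes H3K4 methylation. The other sides of the comparisons were Col-0 without a transgene, rdd, rdr6, fwa and fwaxrdr6. In no comparison were noguideSDG2_rdr6, which carried SunTag-SDG2 without guides in rdr6 plants, and dCAS9-MQ1v in fwaxrdr6 plants. The labels number the libraries by set, SET1 to SET11. The libraries of a comparison came from sets that held both of its lines, except JMJ14xTRBIP1-ZF replicate 2, whose SET7 held no JMJ14 list. The zinc finger was made for the promoter of FWA, a gene silent in Col-0, and it also binds many other places. The study's methods state that transgenes were introduced by floral dip into each background, so SDG2-ZF and SDG2-ZF_rdd differ in background, in transformant and in the set of libraries they came from, and these cannot be told apart. The study's reporting summary states that replicates were performed independently, but the labels do not tie a library to its planting, so p-values measure the spread between these libraries.

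The lists held 9647 to 28847 nuclear peaks for H3K4me3 (29 lists), 5635 to 24156 for H3K14ac (6 lists), 12217 to 30556 for H2A.Z (7 lists) and 808 to 14212 for Myc (8 lists). In 23 lists no peak had a −log10 q under 2, while 27 lists also kept weaker peaks, so the threshold was not the same throughout. Of 12 leaf marker genes fixed as a check of the tissue, 8 to 12 had H3K4me3 in each list, but 0 to 4 of 4 root genes and 2 to 6 of 6 seed genes did too. FWA gained H3K4me3 in SDG2-ZF, SDG2-ZF_rdd and SunTag-SDG2_rdr6, and in none of the 4 SDG2(H1866K)cd lists.

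On the TAIR10.1 assembly, whose nuclear coordinates are those of TAIR10, AT5G20750 spans chr5:7027773-7031290 on the plus strand with 7 annotated exons. AT5G27500 spans chr5:9708136-9709444 on the plus strand with 3 exons, and AT5G27505 spans chr5:9710872-9712425 on the minus strand with 1 exon. These neighbours lie 1427 bp apart with their starts facing outward. AT1G49440 spans chr1:18302711-18304784 on the plus strand and AT1G58010 spans chr1:21448885-21449134 on the minus strand, each with 1 exon. AT1G58010 is only 250 bp long and is the only transcribed pseudogene among them.

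AT5G27500 and AT5G27505 shared an inverted repeat in front of their starts. The pair of arms is shown because each reached into its own H3K14ac segment. The arm of AT5G27500 is chr5:9707828-9708051 on the plus strand, at −308 to −85 relative to its start, and the arm of AT5G27505 is chr5:9712478-9712701 on the minus strand, at −276 to −53 relative to its start. Both are 224 bp and are printed 5′ to 3′ on the strand of their gene, with capitals for the bases that are identical between them.
AT5G27500: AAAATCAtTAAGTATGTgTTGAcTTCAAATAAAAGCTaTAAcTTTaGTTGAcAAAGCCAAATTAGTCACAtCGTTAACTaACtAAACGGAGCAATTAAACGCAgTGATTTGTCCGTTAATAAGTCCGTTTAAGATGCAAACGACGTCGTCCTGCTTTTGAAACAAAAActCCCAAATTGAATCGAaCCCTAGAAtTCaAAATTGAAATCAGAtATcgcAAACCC
AT5G27505: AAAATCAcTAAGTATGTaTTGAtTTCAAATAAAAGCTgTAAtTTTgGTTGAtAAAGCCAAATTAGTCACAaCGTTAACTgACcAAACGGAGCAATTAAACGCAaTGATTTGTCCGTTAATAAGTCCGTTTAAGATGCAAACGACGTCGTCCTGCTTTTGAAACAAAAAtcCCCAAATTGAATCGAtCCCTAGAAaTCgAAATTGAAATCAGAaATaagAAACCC
The arms were identical at 204 of 224 positions (91.1%) with no gap, and the longest identical run was 64 bp. They lay 4426 bp apart, and 129 bp of the first and 139 bp of the second were inside the H3K14ac segments. Within the segments 95.1% of 31-base words of AT5G27500 and 92.5% of those of AT5G27505 occurred once in the nuclear genome, and the rest at most 2 times. For the other 3 segments every 31-base word occurred once.

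The summits of H3K14ac in SDG2-ZF replicate 1 at the other 3 genes are shown as windows of 121 bp, since they mark where the mark was highest. They are chr5:7027994-7028114 (plus strand, summit 281 bp after the start of AT5G20750), chr1:18303734-18303854 (plus strand, 1083 bp after the start of AT1G49440) and chr1:21448975-21449095 (minus strand, 99 bp after the start of AT1G58010), with CG sites in capitals.
AT5G20750: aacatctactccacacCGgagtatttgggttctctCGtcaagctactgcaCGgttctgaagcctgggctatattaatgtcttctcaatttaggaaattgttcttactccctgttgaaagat
AT1G49440: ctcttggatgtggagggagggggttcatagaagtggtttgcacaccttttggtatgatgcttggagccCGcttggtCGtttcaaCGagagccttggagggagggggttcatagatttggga
AT1G58010: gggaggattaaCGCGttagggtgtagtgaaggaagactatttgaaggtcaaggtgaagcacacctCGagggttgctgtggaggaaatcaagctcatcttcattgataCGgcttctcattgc
The windows held 3, 3 and 4 CG sites. Over the whole segments CG density was 3.81 per 100 bp at AT5G20750, 3.35 at AT5G27500, 4.46 at AT5G27505, 2.54 at AT1G49440 and 2.51 at AT1G58010. The median over all gained H3K14ac segments was 2.54 and the nuclear genome had 2.34, so the 3 genes on chromosome 5 stood above the median segment and the pair on chromosome 1 close to it. The G and C content of the 5 segments was 38.2% to 43.5%, against 42.0% in the median gained segment and 36.0% in the genome.

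The H3K14ac segments were as follows in the 2 SDG2-ZF libraries, as the fold enrichment that the peak caller gave over the background of each library. AT5G20750 had folds of 7.95 and 7.99, higher than 99.8% and 99.7% of the peaks in these lists. AT5G27500 had 6.34 and 5.91, and AT5G27505 had 4.96 and 5.08. AT1G49440 had 4.37 and 4.66, and AT1G58010 had 4.25 and 4.32. No H3K14ac peak was listed on any of the 5 segments in either Col-0 library. The folds of these genes did not overlap between neighbours in this order, but AT1G49440 and AT1G58010 were separated by less than the spread between the libraries of AT1G49440. Since the genes were chosen by the lower of their folds, AT1G58010 stood just inside at 4.25, while an intergenic segment at chr2:1710542-1711147 stood just outside with 4.62 and 4.22. The next in order were the pseudogene AT3G44035 with 5.14 and 4.07, the coding gene AT3G44265 with 4.12 and 4.07, and the pseudogene AT2G38990 with 4.57 and 4.05.

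**Figure D1:**
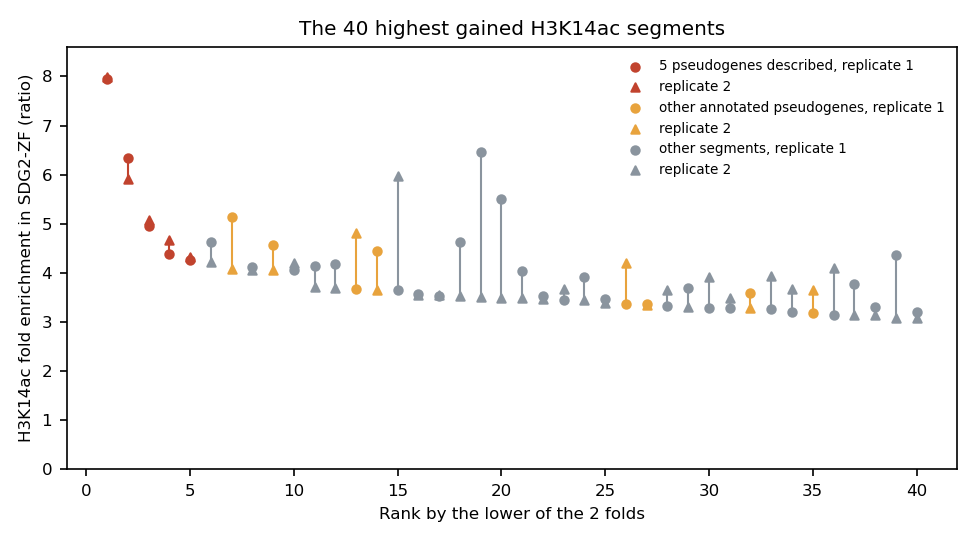
H3K14ac fold enrichment (ratio, y axis) of the 40 highest gained segments in both SDG2-ZF libraries, ordered by the lower of their folds (x axis, rank). Circles are replicate 1, triangles replicate 2 and lines join them; the 5 pseudogenes (red) run from 7.95 and 7.99 at AT5G20750 to 4.25 and 4.32 at AT1G58010, with the next segment at 4.62 and 4.22.

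The segments differed in place and width. At AT5G20750, AT5G27500 and AT5G27505 the mark lay over the start of the gene. The segment of AT5G20750 was 1129 bp and ran to 1005 bp after the start, that of AT5G27500 was 717 bp and ran to 503 bp after it, and that of AT5G27505 was 672 bp and ran to 480 bp after it. At AT1G49440 the mark left the start free and lay inside the body, in 1258 bp from 572 to 1829 bp after the start. At AT1G58010 the segment of 398 bp covered the whole gene. In gene regions, 4 of the 5 had a peak in both H3K14ac SDG2-ZF libraries and in no Col-0 library, beside 1.56% of all gene regions, and since the genes were selected on this contrast nothing is read from the count. The exception was AT5G27505, whose upstream kb also held small peaks (folds 1.7 to 2.45) between −1354 and −665 relative to the start in all 4 libraries. That stretch faces AT5G27510, a gene of the protein kinase family that starts 747 bp away.

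H3K4me3, which the choice of genes did not use and which was measured in other libraries, was also listed at all 5 segments in SDG2-ZF and at none of them in the matched Col-0 libraries. AT5G20750 had folds of 4.65, 6.49 and 4.92 in the 3 SDG2-ZF libraries, above 72.4%, 89.2% and 68.5% of the peaks of each list. AT5G27500 had 2.91, 5.46 and 3.53, above 28.1%, 71.4% and 35.2% of peaks. AT1G49440 had 2.09, 3.08 and 2.40, above 12.2%, 27.4% and 17.1% of peaks. The order of these 3 genes was thus the same in every SDG2-ZF library. AT5G27505 had 1.94 and 3.70 in replicates 1 and 2 and no peak in replicate 3, and AT1G58010 had a peak of 3.20 in replicate 2 only. Replicate 2 had the highest fold at each of the 5 genes, and it held 18836 peaks against 17308 and 18256 in the other SDG2-ZF lists.

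**Figure D2:**
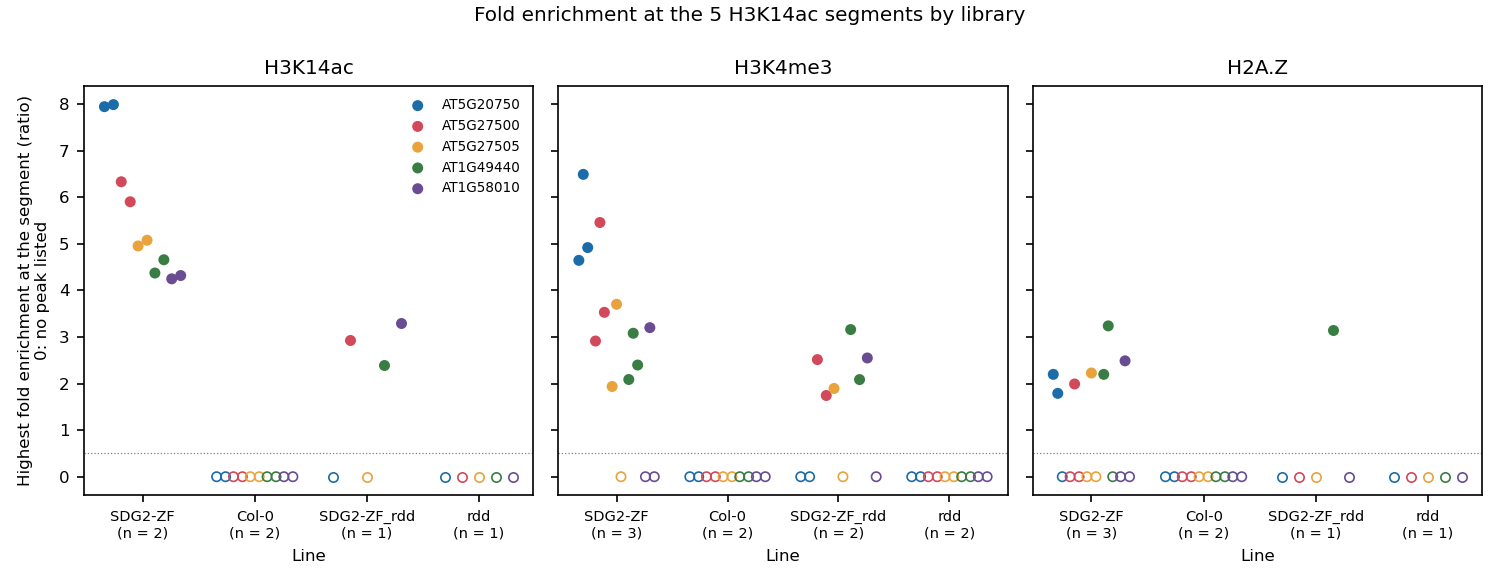
Highest fold enrichment (ratio, y axis) at the H3K14ac segment of each pseudogene (colours) in each library of SDG2-ZF, the matched Col-0 (SET1 for H3K4me3), SDG2-ZF_rdd and rdd (x axis) for H3K14ac, H3K4me3 and H2A.Z; a hollow point at 0 means that no peak is listed. All points of these Col-0 and rdd libraries are at 0, while H3K14ac reaches 7.99, H3K4me3 6.49 and H2A.Z 3.24 in SDG2-ZF.

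By gene region, 3 of the 5 (AT5G20750, AT5G27500 and AT1G49440) gained H3K4me3, with a peak in all 3 SDG2-ZF libraries and in neither Col-0 library, against 2.51% of all gene regions and 54 of 4843 pseudogenes (1.12%). Peaks covered 19.7% ± 3.86 of the region of AT5G20750, 24.6% ± 4.11 of AT5G27500 and 30.8% ± 7.03 of AT1G49440 in SDG2-ZF (SD, n = 3), and 0 in Col-0 (n = 2). For each of these 3 genes the exact two-sided permutation test gave p = 0.1, the smallest possible with 3 against 2 libraries, and 0.418 after Benjamini-Hochberg adjustment over 22245 regions. AT5G27505 was covered to 12.0% ± 13.2 in SDG2-ZF (exact permutation p = 0.4, adjusted p = 0.715) and AT1G58010 to 8.75% ± 15.1 (p = 1), with 0 in Col-0. No region in the genome reached an adjusted p under 0.05, nor could any with so few libraries. Of 13 H3K4me3 peaks of SDG2-ZF on the segments, 11 lay wholly inside them.

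**Figure D3:**
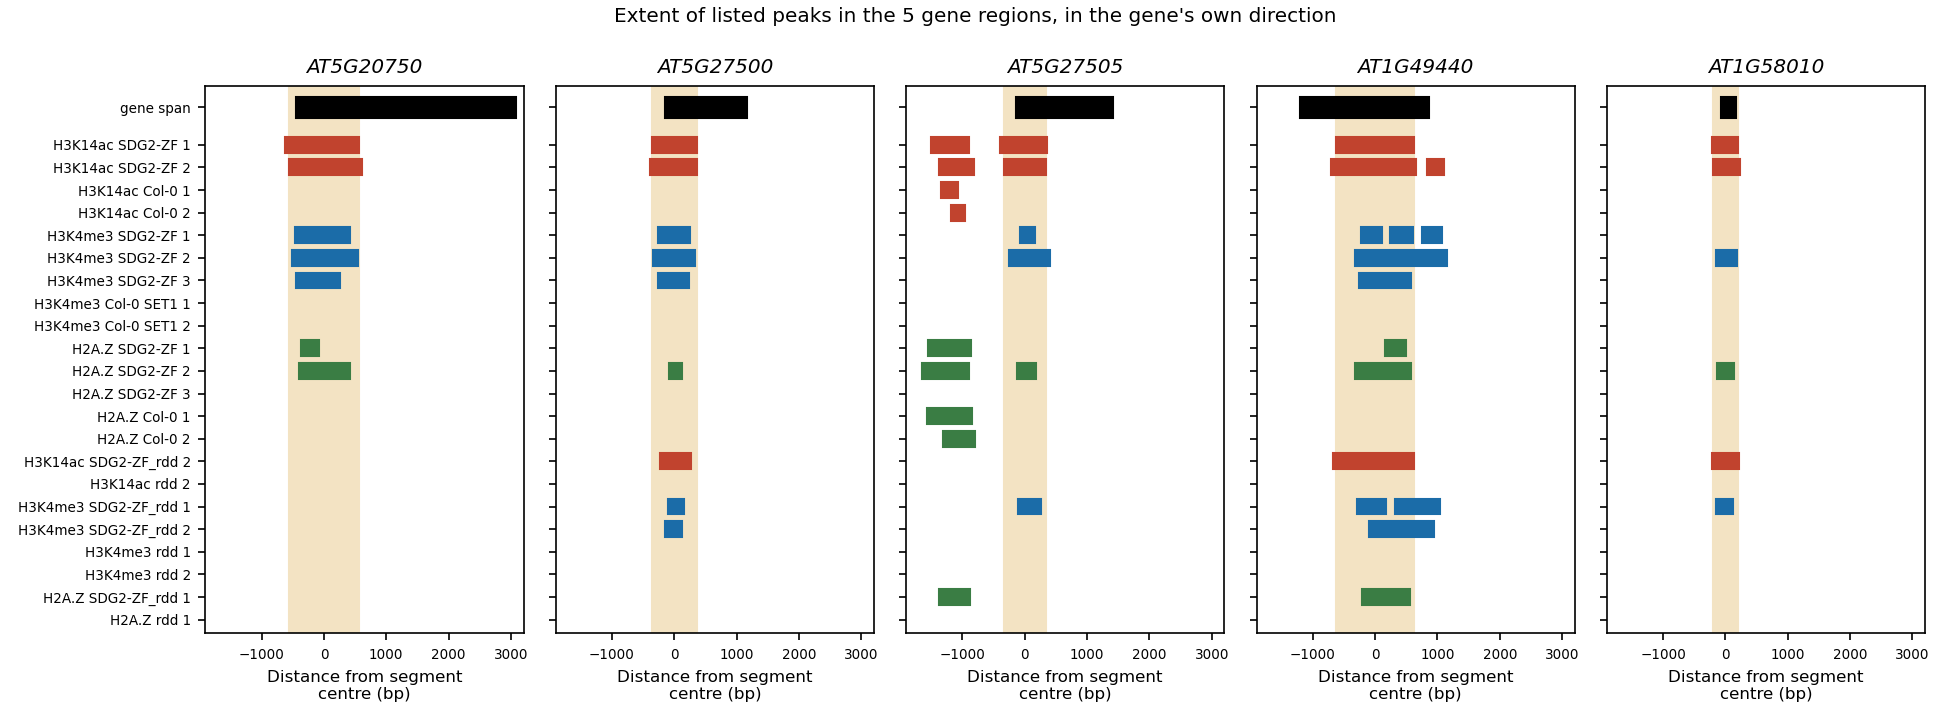
Extent of the listed peaks in each gene region (x axis, bp from the centre of the H3K14ac segment, in the direction of the gene; rows, libraries), with H3K14ac red, H3K4me3 blue, H2A.Z green, the segment shaded and the gene span black. Peaks of SDG2-ZF and SDG2-ZF_rdd lie on the shaded segments, where no Col-0 or rdd library drawn here (Col-0 of SET1 for H3K4me3) has a peak; the peaks left of the segment at AT5G27505 appear in Col-0 as well.

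H2A.Z appeared at all 5 segments in at least 1 SDG2-ZF library and in no Col-0 library, but not in every replicate. AT1G49440 had folds of 2.2, 3.24 and no peak in SDG2-ZF replicates 1, 2 and 3, and AT5G20750 had 2.2, 1.79 and no peak. AT5G27500, AT5G27505 and AT1G58010 had a peak in replicate 2 only, at 2.0, 2.23 and 2.49. Replicate 3 had no H2A.Z peak at any of them and held 12217 peaks, against 18658 and 29052 in the other SDG2-ZF lists and 28280 and 21273 in the Col-0 lists. The 7 H2A.Z peaks of SDG2-ZF on the segments all lay wholly inside them. By gene region none of the 5 gained H2A.Z in all 3 libraries, against 0.0765% of all regions. Without replicate 3, and equally with replicate numbers as a block, 2 of the 5 did (AT5G20750 and AT1G49440), and within SET5, which holds replicate 2 of each line, 4 did. Within SET4, which holds SDG2-ZF replicates 1 and 3 and Col-0 replicate 1, none did. SET5 sets 1 list against 1, and no share of all regions stands beside these alternative counts, so nothing is read from them. Cover of the region of AT1G49440 was 13.4% ± 14.7 in SDG2-ZF (SD, n = 3) and 0 in Col-0 (exact permutation p = 0.4, adjusted p = 1). For AT5G27505 it was 11.1% ± 11 in SDG2-ZF and 12.8% ± 1.19 in Col-0 (exact permutation p = 0.7, adjusted p = 1), but the Col-0 peaks lay between −1424 and −652 relative to the start, on the side of AT5G27510.

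In the rdd background the 5 genes differed among themselves. AT5G20750, the strongest in SDG2-ZF for H3K14ac and H3K4me3, had no peak of H3K14ac, H3K4me3 or H2A.Z on its segment in any SDG2-ZF_rdd library. AT5G27500 had H3K4me3 folds of 2.52 and 1.74 in the 2 SDG2-ZF_rdd libraries, and AT1G49440 had 3.16 and 2.09, with no peak in either rdd library. AT5G27505 had 1.9 and AT1G58010 had 2.55 in replicate 1 only. By gene region 2 of the 5 gained H3K4me3 in SDG2-ZF_rdd over rdd (AT5G27500 and AT1G49440), against 3.09% of all gene regions. AT5G27500 was covered to 11.5% ± 1.19 and AT1G49440 to 32.5% ± 1.5 in SDG2-ZF_rdd (SD, n = 2), and both to 0 in rdd (exact permutation p = 0.333, the smallest possible with 2 against 2, adjusted p = 0.765). The count was 4 without SDG2-ZF_rdd replicate 2 and within SET6, which holds replicate 1 of each line, and 1 when only peaks with −log10 q of at least 5 were used. With equal numbers of peaks taken from each list it was 0. SET6 sets 1 list against 1, and these alternative counts have no share of all regions beside them. The H3K4me3 lists held 19418 and 18063 peaks in SDG2-ZF_rdd and 16158 and 12992 in rdd. Over all gene regions 1171 were gained, and 0 had a peak in both rdd libraries and in neither SDG2-ZF_rdd library. The part of this gap in list length in the gains was not tested.

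A single H3K14ac library of each line was listed in the rdd background, so there is no replicate check. SDG2-ZF_rdd had H3K14ac at AT1G58010 with a fold of 3.31, at AT5G27500 with 2.93 and at AT1G49440 with 2.39, and none at AT5G20750 or AT5G27505, while rdd had none at any. These 3 of 5 gene regions stood against 43.5% of all regions that met the same condition, a share so large that the count tells nothing of these genes. The SDG2-ZF_rdd list held 23235 H3K14ac peaks and the rdd list 5635, with a peak at 7 of the 12 leaf marker genes in SDG2-ZF_rdd and at 0 in rdd, and the part of this gap in the result was not tested. With equal numbers of peaks from each list none of the 5 was called. H2A.Z in SDG2-ZF_rdd was listed at AT1G49440 only, with a fold of 3.16 in its 1 library. By gene region 2 of the 5 (AT5G27505 and AT1G49440) had H2A.Z in SDG2-ZF_rdd and not in rdd, against 17.1% of all regions, and the peak of AT5G27505 lay at −1223 to −727 relative to its start. The H2A.Z list of SDG2-ZF_rdd held 30556 peaks and that of rdd 21066, and the part of this gap was not tested either. Whether the response to SDG2-ZF differed between the Col-0 and rdd backgrounds was not tested.

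The lines without a working SDG2 part at the zinc finger's sites had few peaks at these genes. None of the 5 gained H3K4me3 in SDG2(H1866K)cd, against 0.029% of all regions. AT5G27500 had weak peaks near its end in 2 of the 4 SDG2(H1866K)cd libraries, with folds of 1.35 and 1.41, away from its H3K14ac segment, and its cover was 3.32% ± 3.84 (SD, n = 4) against 0 in Col-0 (n = 2; exact permutation p = 0.467, adjusted p = 1). In the Col-0 libraries matched to SDG2(H1866K)cd, replicate 1 had a peak of 1.38 at AT5G27505 and one of 1.48 at AT1G49440, and this list was the longest of all H3K4me3 lists, at 28847 peaks. That peak of AT1G49440, with −log10 q of 1.89, was the only peak on any of the 5 segments in the 36 lists of lines without SDG2-ZF. SunTag-SDG2_rdr6, which was guided to FWA and not by the zinc finger, gained H3K4me3 at none of the 5, against 1.19% of all regions. TRBIP1-ZF shares the zinc finger, and none of the 5 gained H3K4me3 there (0.462% of all regions did) or in TRBIP1-dCAS9-MQ1v (0.525%). The study reports that TRBIP1-ZF removes H3K4me3, and no fwa or fwaxrdr6 list had a peak at these genes. The absence of gains therefore cannot show what the zinc finger does without SDG2.

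**Figure D4:**
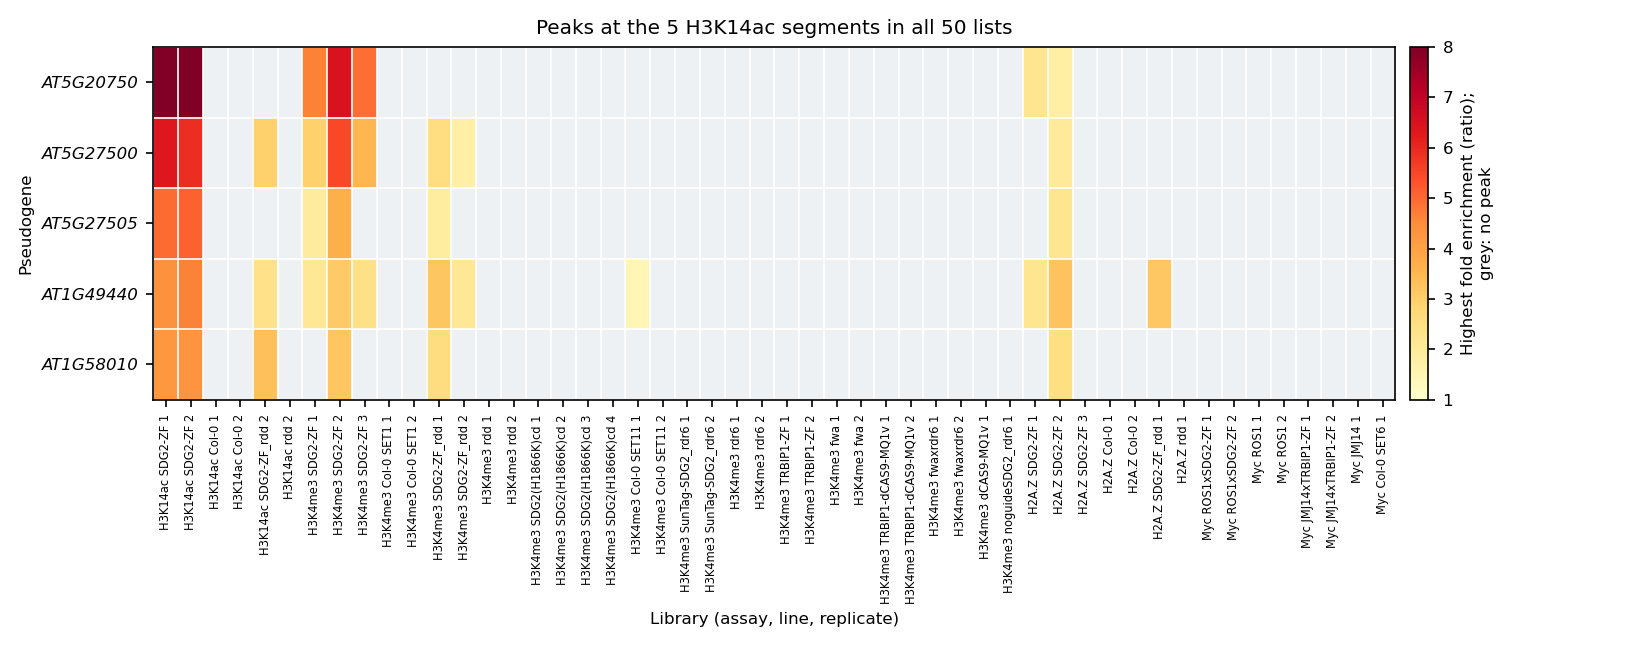
Highest fold enrichment (colour, ratio) at the H3K14ac segment of each pseudogene (rows) in all 50 lists (columns, by assay, line and replicate); grey means no peak. Coloured cells stand in SDG2-ZF and SDG2-ZF_rdd columns, with the single exception of H3K4me3 in Col-0 SET11 replicate 1 at AT1G49440 (1.48).

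No Myc peak lay on any of the 5 segments in ROS1xSDG2-ZF or in ROS1. At 4 of the 5 genes the whole region had none in these libraries. Upstream of AT5G20750, Myc peaks were listed in all 4, with top folds of 4.66 and 3.12 in ROS1xSDG2-ZF and 1.9 and 3.02 in ROS1, and these ended at −257 or farther from the start, toward AT5G20740, a gene of the pectin methylesterase inhibitor family. They covered 8.75% ± 5.49 of the region in ROS1xSDG2-ZF and 10.5% ± 8.39 in ROS1 (SD, n = 2 each; exact permutation p = 1, adjusted p = 1). None of the 5 gained Myc in ROS1xSDG2-ZF over ROS1, against 0.636% of all regions. In JMJ14xTRBIP1-ZF, set against 1 JMJ14 library, none was gained either (3.38% of all regions were), and AT5G27505 had a peak of 2.37 in 1 of 2 libraries, again on the side of AT5G27510.

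Counted over lists, AT1G49440 had a peak on its segment in 11 of the 14 lists of lines with SDG2-ZF and in 1 of the 36 others. AT5G27500 had one in 9 of 14, AT5G20750 in 7 of 14, and AT5G27505 and AT1G58010 in 6 of 14, each with 0 of 36 others. The 14 lists include the 2 H3K14ac SDG2-ZF libraries that chose the genes, and the 36 include the 2 H3K14ac Col-0 libraries. The selection fixed the outcome in these 4 lists. The sides also differ in assay, since the 14 include 2 Myc lists and most of the 36 are H3K4me3 lists, so the counts are a description. As a background, 1050 of 37899 gene regions (2.77%) had a peak in at least 1 of these 14 lists and in none of the 36. Counted by gene region in the same way, AT1G58010 alone of the 5 met this condition, since AT5G20750, AT5G27500, AT5G27505 and AT1G49440 had a peak elsewhere in their region or on the segment in 2, 2, 6 and 1 of the 36.

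Set beside the other gained H3K14ac segments, the 5 carried the other marks as follows, as a description. H3K4me3 in all 3 SDG2-ZF libraries and in no Col-0 library was found at 3 of 5 segments, at 8 of the 75 gained segments of other annotated pseudogenes (10.7%) and at 144 of all 1434 others, the 75 included (10.0%). H2A.Z in at least 1 SDG2-ZF library and in no Col-0 library was found at 5 of 5, at 26 of 75 (34.7%) and at 305 of 1434 (21.3%). H3K14ac in SDG2-ZF_rdd was found at 3 of 5, at 29 of 75 (38.7%) and at 826 of 1434 (57.6%). H3K4me3 in both SDG2-ZF_rdd libraries was found at 2 of 5, at 4 of 75 (5.33%) and at 323 of 1434 (22.5%). Myc in ROS1xSDG2-ZF was found at 0 of 5, at 2 of 75 and at 206 of 1434 (14.4%). The 5 were the highest by fold and also wide, at 398 to 1258 bp against a median of 231 bp and a median lower fold of 1.84 over all 1439, and the part of height and width in these shares was not tested.

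**Figure D5:**
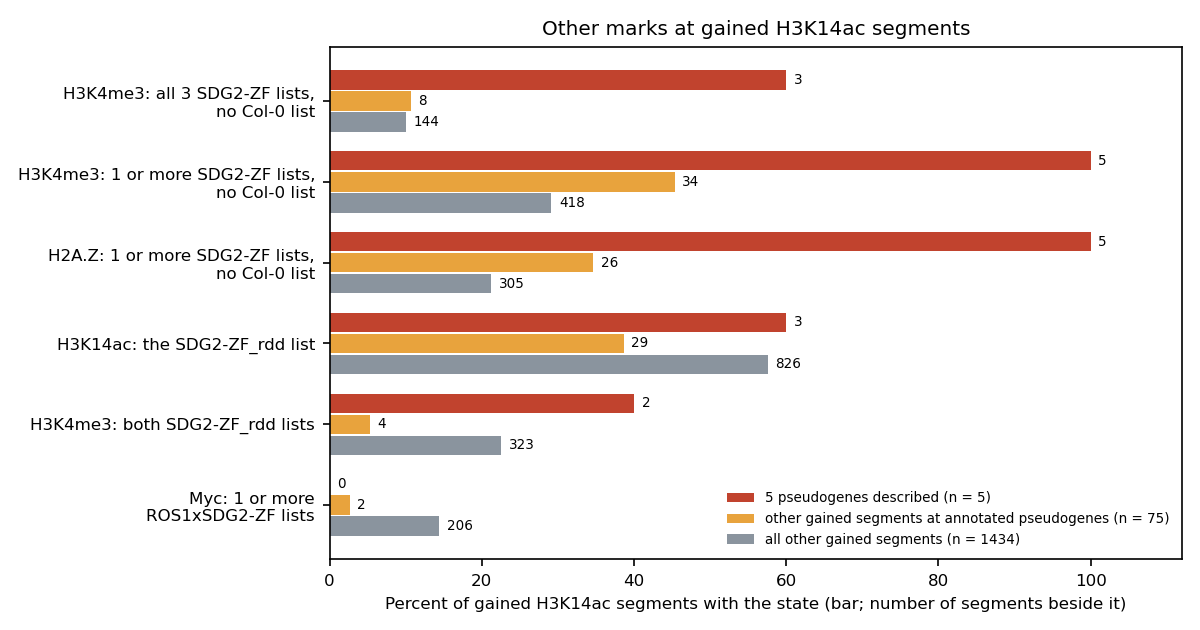
Share of gained H3K14ac segments (x axis, percent; number of segments beside each bar) that carried another mark or line's peak (rows), for the 5 pseudogenes, the other 75 segments at annotated pseudogenes and all 1434 others. H3K4me3 in all 3 SDG2-ZF libraries and no Col-0 library stood at 3 of 5, 8 of 75 and 144 of 1434 segments, and Myc in ROS1xSDG2-ZF at 0 of 5.

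In SDG2-ZF against Col-0, no gene next to the 5, other than the 5 themselves, was called as gaining H3K14ac. AT5G20740, AT5G27510 and AT1G49450 (a WD40 repeat protein) had H3K14ac in both SDG2-ZF and both Col-0 libraries, and AT5G20760, AT5G27495, AT1G49435 and AT1G58020 had it in none. AT1G58007, 1382 bp from AT1G58010, had it in 0 of 2 SDG2-ZF and 2 of 2 Col-0 libraries. In the rdd background AT5G20740 had H3K14ac in the 1 SDG2-ZF_rdd library and not in the rdd library, the condition that 43.5% of all regions met. AT5G20740 and AT1G49450 were called as gaining H3K4me3 in SDG2-ZF, and their regions overlap those of AT5G20750 and AT1G49440. In SDG2-ZF replicate 3, however, the only H3K4me3 peak in the region of AT5G20750 lay outside the region of AT5G20740. The call of AT5G20740 thus rests in that library on a peak outside the overlap. Both calls are against Col-0 of SET1. In Col-0 of SET11, AT5G20740 and AT1G49450 each had H3K4me3 in 2 of 2 libraries. AT1G49450 also had it in 2 of 2 rdr6 libraries, and AT5G20740 in 1 of 2 rdr6 and 1 of 2 rdd libraries. These neighbours were therefore not free of H3K4me3 in lines without SDG2-ZF.

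A BLAST search of the gene spans found 5 related genes for AT5G20750, 16 for AT5G27500, 14 for AT5G27505, 17 for AT1G49440 and 2 for AT1G58010, most of them pseudogenes. The closest were AT3G42690 (67.7% identity over 864 bp), AT2G06235 (70.3% over 502 bp), AT1G35995 (73.3% over 1202 bp), AT2G18820 (64.4% over 1018 bp) and AT1G61580 (83.5% over 85 bp), in the same order. Among all these relatives 1 gained H3K14ac in SDG2-ZF, AT3G30170, a relative of AT5G27505, and none gained H3K4me3. Of all gene regions 1.56% gained H3K14ac and 2.51% gained H3K4me3 in the same comparisons, so nothing is read from these counts. The longest run shared with the H3K4me3 segment that FWA gained (chr4:13038276-13038995, either strand) was 12 bp at AT5G20750, 14 bp at AT5G27500, 10 bp at AT5G27505, 10 bp at AT1G49440 and 9 bp at AT1G58010. The other 1433 gained H3K14ac segments shared runs of 6 to 15 bp (median 9). Of them 74.7% reached the 9 bp of AT1G58010 and 0.488% the 14 bp of AT5G27500. A longer segment offers more places for a run, and the 5 segments were 398 to 1258 bp against a median of 231 bp. The part of length in these runs was not tested. The binding site of the zinc finger was not searched for.

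The genes whose pattern over the 50 lists was most like each of the 5 were found by the Jaccard index, the number of lists with a peak in both gene regions over the number with a peak in either. For AT5G27500 it was AT1G15415 (0.909, 10 of 11 lists), and for AT1G58010 the snRNA genes U4.6 (AT1G04897) and U1.10 (AT1G04907) (0.857 each, 6 of 7 lists). For AT1G49440 it was AT3G54240 (0.846) and then the pseudogene AT5G26345 (0.833), whose own H3K14ac segment ranked 13 with folds of 3.67 and 4.81. AT5G27505 was most like AT4G29760 (0.733) and AT5G20750 most like AT3G00530 and AT3G26800 (0.571 each). Among the 5 themselves the index ran from 0.308 for AT5G20750 with AT1G58010 to 0.643 for AT5G27500 with AT1G49440. Lists share lines and antibodies, so these values are a description.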

How the data were processed

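H3K4me3, H3K14ac, H2A.Z and Myc ChIP-seq of Arabidopsis leaf were analysed from deposited peak lists, 1 per library. Per the labels, the authors used Trim Galore 0.6.5, Bowtie2 2.1.0 (TAIR10), SAMtools 1.9, deepTools 3.1.3 and MACS2 2.2.1. The deposited lists hold, for each peak, a ratio (fold enrichment over that library's own background) and −log10 values of p and q. Both depend on depth, and no reads were used here.

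Peaks on the 5 nuclear chromosomes were set against gene regions (span plus 1000 bp upstream; overlap of 1 bp or more). A region was gained with a peak in every list of the first group and in no list of the second. The percent covered was compared by an exact two-sided permutation test over libraries, adjusted over all regions with a peak in either group. Python 3.11.15, pandas 2.3.3, NumPy 2.4.6, SciPy 1.17.1, Biopython 1.88 and BLAST+ 2.17.0 (expect 1e-10) were used. On simulated cover values, 200 of 200 planted gains were found, with 0 false calls. Planted gains had cover in every library of the first group and none in the second, with no missed peaks or differences in depth. This checks the code and not how the calls perform on the real lists.

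The genes, lists and tests were chosen with earlier results of these data known. Named genes were the 5, FWA, their nearest neighbours, the 2 most similar genes of each and the next segments in rank. Same-numbered libraries share a set, and a number names a set of its own in the SDG2-ZF_rdd, Myc ROS1 and TRBIP1-ZF comparisons, while H2A.Z SDG2-ZF replicates 1 and 3 are both from SET4; deviations of same-numbered libraries correlated at 0.19 for H3K4me3 in SDG2-ZF_rdd, at 0.14 and 0.03 for H2A.Z, at 0.60 for Myc and at 0.43 for TRBIP1-ZF. Alternatives were other q limits, equal peak numbers, gene span only, a larger overlap, single sets, a replicate block and leaving out each library. Inputs, H3 libraries and samples with no list were not used here.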

Additional observations from a re-analysis of the deposited data

How the results depend on the processing

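Of the counts and medians for the comparisons, 211 alternative values stayed within the limits set and 20 moved. The median difference in percent of the region covered was 32.0 for H3K14ac in SDG2-ZF (38.8 over the gene span only), 19.7 for H3K4me3 in SDG2-ZF (32.2), 11.2 for H3K4me3 in SDG2-ZF_rdd and 7.31 for H2A.Z in SDG2-ZF. An alternative chosen after seeing the data, the H3K14ac segment in place of the region, gave 100, 65.6, 35.1 and 22.9 in that order. For SDG2-ZF_rdd the H3K4me3 median was 0 with −log10 q of at least 5, with equal peak numbers and within SET7, and 0 to 14.5 with each library left out. The number of genes that gained it was 2 as reported, 1 with the q limit, 0 with equal peak numbers, 4 within SET6 and 2 to 4 with each library left out. Gains of H3K14ac in SDG2-ZF_rdd fell to 0 of 3 with equal peak numbers, and those of H2A.Z to 1 of 2 over the gene span and on the segment. No share of all regions stands beside the alternative counts of this section, so they show only how the counts move.

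With the replicate number as a block, H2A.Z gains in SDG2-ZF were 2 in place of 0, 4 within SET5 and 0 within SET4; leaving out each library gave 0 to 2. The block gave 4 in place of 3 for H3K4me3 in SDG2-ZF and changed no other count. The H2A.Z difference at AT5G27505, −1.74 as reported, turned to 6.63 over the gene span, 15.3 on the segment, 3.80 with the block, and 8.30 within SET5, and ran from −7.18 to 3.80 with each library left out. The Myc difference upstream of AT5G20750, −1.78 as reported, turned to 6.45 with −log10 q of at least 5, 3.02 with equal peak numbers and 0.266 within SET7, and ran from −7.71 to 4.15 with each library left out (2.1 without ROS1xSDG2-ZF replicate 2, 4.15 without ROS1 replicate 1). The cause was not tested.

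The smallest p that 2 to 4 libraries per group allow is 0.0667, and a missing peak shows only that none was called at that depth.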

Other observations

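H3K4me3 in noguideSDG2_rdr6 and dCAS9-MQ1v, with 1 list each, and Myc in untagged Col-0 of SET6, with 808 peaks, entered no comparison. None of the 5 gene regions had a peak in any of these 3 lists.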
